A study of Homo sapiens with 16 samples.

Results

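The genes described here are 9 genes of proteolysis at the cell surface: the urokinase gene PLAU, the urokinase receptor gene PLAUR, the receptor ligand gene SRPX2, the matrix metalloproteinase (MMP) genes MMP2, MMP7 and MMP14, and the tissue inhibitor of metalloproteinases (TIMP) genes TIMP1, TIMP2 and TIMP3. They were taken by symbol, whatever their values, and all 9 were found among the 26485 gene symbols of each count file. RNA was sequenced from SW480 and SW620, established human colon carcinoma lines from a primary tumour and a lymph node metastasis of the same patient, both with truncated APC and high Wnt signalling. Each line carried either green fluorescent protein (GFP, the control, labelled Wnt high) or dnLEF1, a dominant-negative form of the transcription factor LEF1 that was used to inhibit Wnt signalling. There were 4 libraries in each of the 4 groups, SW480 GFP, SW480 dnLEF1, SW620 GFP and SW620 dnLEF1, and 16 in all, from cells at passage 6. Cells were grown in DMEM and taken up with trypsin and EDTA, and no protein level or enzyme activity was measured. Neither the delivery of the constructs, nor their promoter, nor whether the cells were clones is given in the sources used here. Whether the 4 libraries of a group came from separate cultures is not in the labels either, so p-values here reflect sample-to-sample spread alone, and that spread may be technical.

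Urokinase is a secreted serine protease that binds its receptor, a lipid-anchored protein on the cell surface, and there turns plasminogen into plasmin. Plasmin degrades fibrin and matrix proteins and activates some MMPs. PLAT encodes tissue plasminogen activator, a relative of urokinase. SRPX2 is a secreted sushi-repeat protein described as a ligand of the urokinase receptor. MMP14 is anchored in the membrane and activates pro-MMP2 in a complex that contains TIMP2, MMP7 is a small epithelial MMP known as a Wnt target in intestinal tumours, and TIMP3 is the TIMP that is held in the matrix.

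LEF1 served as the check of the construct. Its mean level, in CPM (counts per 1000000 gene counts, on effective library sizes), went from 51.7 ± 1.89 (SD, n = 4) in SW480 GFP to 246 ± 49.1 in SW480 dnLEF1, and from 3.36 ± 0.501 in SW620 GFP to 23.3 ± 2.35 in SW620 dnLEF1. The rise passed the test in both lines, by 2.26 ± 0.12 (SE) on the log2 scale for SW480 (edgeR adjusted p = 2.37e-09) and by 2.79 ± 0.12 for SW620 (edgeR adjusted p = 7.94e-09). Counts per gene do not separate the construct from the cell's own LEF1. The SW480 dnLEF1 library of replicate 4 stood at 173 CPM of LEF1 against 269 to 273 in the other 3. The libraries held between 17181204 and 26153506 gene counts. SW620 GFP replicate 3 stood apart in that 50.5% of its reads lay in the summary lines that name no gene, against 20.0% to 24.3% in the other libraries. Reads aligned to several places made up 39.4% of its total, against 7.61% to 9.46% in the other libraries. Colon epithelium markers led by the keratin gene KRT8 summed to 10700 to 12500 CPM in SW480 GFP, 7090 to 8510 in SW480 dnLEF1, 9940 to 12200 in SW620 GFP and 8530 to 10800 in SW620 dnLEF1. Of the 8 of its 10 genes tested in SW480, 7 were called lower with dnLEF1 and 1 higher, where 24.4% of all genes tested there were called lower and 24.2% higher. CDX2 went from 12.2 to 0.131 CPM, VIL1 from 35.0 to 2.43, CDH17 from 6.69 to 0 and CDH1, the higher one, from 13.3 to 39.0. In SW620, 3 of 8 were called lower and 0 higher, where 2.43% of all genes tested there were called lower and 6.03% higher. Fibroblast markers summed to at most 38.8 CPM in any library. In SW480 their sum lay between 11.6 and 19.5 CPM with GFP and between 16.5 and 38.8 CPM with dnLEF1. Of 4 tested there 1 was called higher (COL1A1, from 4.84 to 28.1 CPM) and 3 lower, among them LUM, from 7.20 CPM to 0, and DCN was at 0 in both groups. The leukocyte and macrophage list reached at most 11.9 CPM, with PTPRC at 0 in 3 of the 4 groups. In SW480 the sum of this list lay between 5.02 and 6.25 CPM with GFP and between 9.27 and 11.9 CPM with dnLEF1. Of 3 tested there 2 were called higher and 0 lower, and CD68 went from 1.99 to 4.83 CPM. The endothelial list reached at most 4 CPM. Its sum in SW480 lay between 0.908 and 1.46 CPM with GFP and between 2.54 and 4 CPM with dnLEF1. The 1 gene tested there was called higher. In SW480, 3 histone genes taken as a sign of RNA quality summed to 28.9 to 82.7 CPM with GFP and 63.5 to 132 CPM with dnLEF1. The part of these lists in the results below was not tested.

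The upstream sequences of MMP7 and SRPX2, which had the largest log2 changes of the 9 genes in SW480, are shown first, with the site in PLAUR that holds the same motif. RefSeq start sites (GRCh38.p14) were found for 7 of the 9 genes, and the 250 bases before each start were searched on both strands. Capitals mark each match to TGANTCA, the motif bound by AP-1 (FOS and JUN proteins), or to CTTTGAA, a form of the motif bound by TCF and LEF proteins, which appears as TTCAAAG where it lies on the other strand. The MMP7 stretch runs from 210 to 11 bases before the start (chr11:102530758-102530957, minus strand), that of SRPX2 from 210 to 11 bases before the start (chrX:100643989-100644188, plus strand), and the PLAUR site from 197 to 169 bases before the start (chr19:43670338-43670366, minus strand). The PLAUR site lies wholly in a GENCODE exon (29 of 29 bases), since GENCODE starts the gene farther upstream than the RefSeq start used, while the printed MMP7 and SRPX2 stretches share 0 bases with exons.
MMP7: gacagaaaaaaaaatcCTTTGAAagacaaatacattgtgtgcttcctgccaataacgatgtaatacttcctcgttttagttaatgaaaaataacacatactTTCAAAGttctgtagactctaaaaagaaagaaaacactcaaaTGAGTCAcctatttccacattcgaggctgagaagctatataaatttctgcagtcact
SRPX2: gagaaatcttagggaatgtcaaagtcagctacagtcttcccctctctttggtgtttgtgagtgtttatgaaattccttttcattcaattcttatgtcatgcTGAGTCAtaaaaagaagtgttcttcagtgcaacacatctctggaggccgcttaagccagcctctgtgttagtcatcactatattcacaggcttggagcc
PLAUR: tcacaactccaTGAGTCAgggccgagcca
MMP7 held CTTTGAA at 2 places, 194 to 188 and 109 to 103 bases before its start, and TGANTCA at 67 to 61. TGANTCA was also found in SRPX2, at 109 to 103, and in PLAUR, at 186 to 180, and in no other matched gene of the 9. Of all 35116 RefSeq windows of that length, 6.57% held TGANTCA and 3.81% held CTTTGAA. The other TCF and LEF form searched, CTTTGAT, was in 2.26% of all windows and in none of these genes. The GC box GGGCGG, in 42.6% of all windows, was found in PLAU, MMP14, TIMP1 and TIMP3. TATAAA, in 10.7% of all windows, was found in MMP7, in lower case above because its site is not compared. These matches describe the letters and are not evidence of binding.

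In SW480, dnLEF1 went with higher levels of all 3 genes of the urokinase system and of MMP7, TIMP1 and TIMP3, and with lower MMP14 and TIMP2. Of the 9 genes tested, 6 rose, 2 fell and MMP2 did not pass the test, where 48.5% of all 14426 genes tested were called (24.2% higher and 24.4% lower). The median log2 change was 0.65 over the 9 genes and 0.00 over all genes. In SW620, 8 of the 9 genes could be tested, and 3 of them, SRPX2, TIMP2 and TIMP3, rose while 0 fell, where 8.46% of all 13336 genes tested were called (6.03% higher and 2.43% lower). DESeq2 and limma voom gave the same 3 and 0. MMP7 (edgeR unadjusted p = 0.0234) and TIMP1 (0.0475), which were higher, and PLAUR (0.00813), which was lower, did not pass after adjustment. The median log2 change was 0.23 over the 8 genes and 0.00 over all genes. Without SW620 GFP replicate 3, the library with many reads aligned to several places, SRPX2 (log2 1.30, edgeR adjusted p = 0.00969) and TIMP2 (log2 0.28, edgeR adjusted p = 0.00725) passed, and TIMP3 did not. In these bulk libraries a change in the share of cells that express a gene and a change in RNA per cell cannot be told apart.

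**Figure D1:**
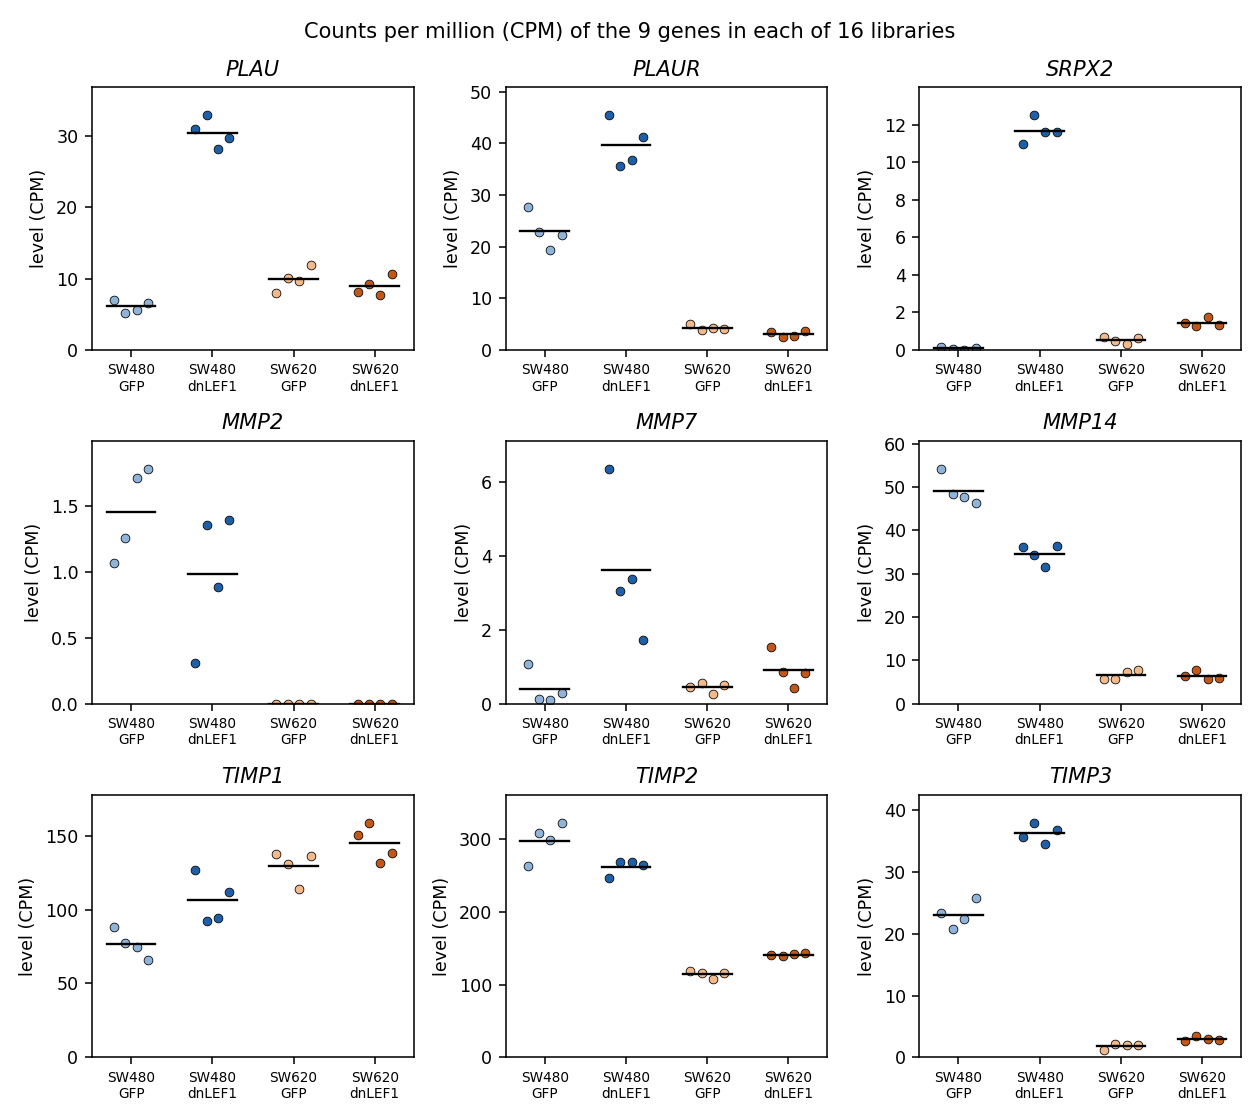
Level of each of the 9 genes in CPM (linear axis from 0, a separate scale per gene) in each of the 16 libraries, by group. Points are libraries and bars are group means; PLAU, SRPX2 and MMP7 stood highest in SW480 dnLEF1, and MMP2 was at 0 in all SW620 libraries.

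PLAU, on chromosome 10 (hg38, chr10:73909177-73917496, plus strand), stood at 7.03, 5.19, 5.57 and 6.61 CPM in the SW480 GFP libraries and at 31.0, 32.9, 28.1 and 29.7 CPM in SW480 dnLEF1. The groups did not overlap, and the lowest dnLEF1 library lay well above the highest GFP library. The rise was 4.98-fold, or 2.32 ± 0.10 on the log2 scale (edgeR adjusted p = 3.65e-10). In SW620 the GFP libraries read 7.94, 10.1, 9.64 and 11.8 CPM and the dnLEF1 libraries 8.11, 9.27, 7.75 and 10.6 CPM. These ranges overlapped and the log2 change was -0.14 ± 0.14 (edgeR adjusted p = 0.627). The difference between the lines in the effect of dnLEF1, SW620 minus SW480, was -2.46 ± 0.18 on the log2 scale and passed its own test (edgeR interaction term, adjusted p = 1.11e-09). PLAU shares 915 exon bases with C10orf55 on the opposite strand, a gene that reached a group mean of at most 0.319 CPM.

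PLAUR (chr19:43646095-43670547, minus strand) rose less. Its SW480 GFP libraries read 27.6, 22.8, 19.4 and 22.3 CPM and its SW480 dnLEF1 libraries 45.4, 35.6, 36.8 and 41.2 CPM. The groups did not overlap, replicate 1 was the highest of both, and the rise was 1.73-fold (log2 0.79 ± 0.11, edgeR adjusted p = 3.45e-05). In SW620 it read 5.08, 3.83, 4.26 and 4.07 CPM with GFP and 3.46, 2.39, 2.64 and 3.57 CPM with dnLEF1. Every dnLEF1 library was below every GFP library, but the log2 change of -0.51 ± 0.16 did not pass the test (edgeR adjusted p = 0.0798). The lines differed in the effect of dnLEF1 by -1.29 ± 0.20 on the log2 scale (edgeR interaction term, adjusted p = 3.66e-05).

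SRPX2 (chrX:100644195-100675788, plus strand) had the largest change of the 9 genes in both lines. It was close to undetected in SW480 GFP, at 0.158, 0.0447, 0 and 0.0912 CPM, which were 7 counts in all, and stood at 11.0, 12.5, 11.6 and 11.6 CPM in SW480 dnLEF1, from 1072 counts. The ratio of the summed counts, scaled for depth, was 151, with an exact 95% interval of 73.1 to 377 that covers counting error only. The fitted log2 change was 7.15 ± 0.27 (edgeR adjusted p = 4.66e-11), and without SW480 GFP replicate 1, which held the most SRPX2 counts of its group, it was 7.83. In SW620, SRPX2 went from 0.680, 0.461, 0.320 and 0.625 CPM with GFP to 1.43, 1.29, 1.73 and 1.33 CPM with dnLEF1. Those groups did not overlap either, and the rise was 2.74-fold (log2 1.45 ± 0.26, edgeR adjusted p = 0.00272). The rise was smaller in SW620 than in SW480 by 5.69 ± 0.46 on the log2 scale, an interaction of -5.69 (edgeR adjusted p = 6.8e-09) that was -6.37 without SW480 GFP replicate 1. SRPX2 shares 4006 exon bases with SYTL4, a Rab effector gene on the opposite strand, and no source used here gives the strand setting of the counting, so reads of the shared bases cannot be told apart. SYTL4 itself rose 1.83-fold in SW480, to 18.2 CPM from 9.99 (log2 0.87 ± 0.10, edgeR adjusted p = 3.9e-06), and stood at 9.86 and 10.3 CPM in SW620 GFP and dnLEF1. SYTL4 was above 9 CPM in the SW480 GFP libraries in which SRPX2 was at or near 0, and both genes rose with dnLEF1 in SW480. Whether SYTL4 reads enter the SRPX2 counts was not tested.

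PLAT, the gene of the other plasminogen activator, rose in SW480 from 8.10, 5.41, 4.67 and 6.02 CPM to 140, 122, 110 and 110 CPM, 19.8-fold with no overlap (log2 4.31 ± 0.14, edgeR adjusted p = 1.41e-11). Its lowest dnLEF1 library lay far above its highest GFP library. PLG, the plasminogen gene, was at a mean of 0.0341 to 0.0808 CPM over the 4 groups and was not tested. In SW620, PLAT stayed at 0.715 to 0.816 CPM with GFP and 0.396 to 1.04 CPM with dnLEF1 (log2 -0.19 ± 0.32, edgeR adjusted p = 0.819). The difference between the lines was -4.49 ± 0.39 (edgeR interaction term, adjusted p = 2.27e-08).

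**Figure D2:**
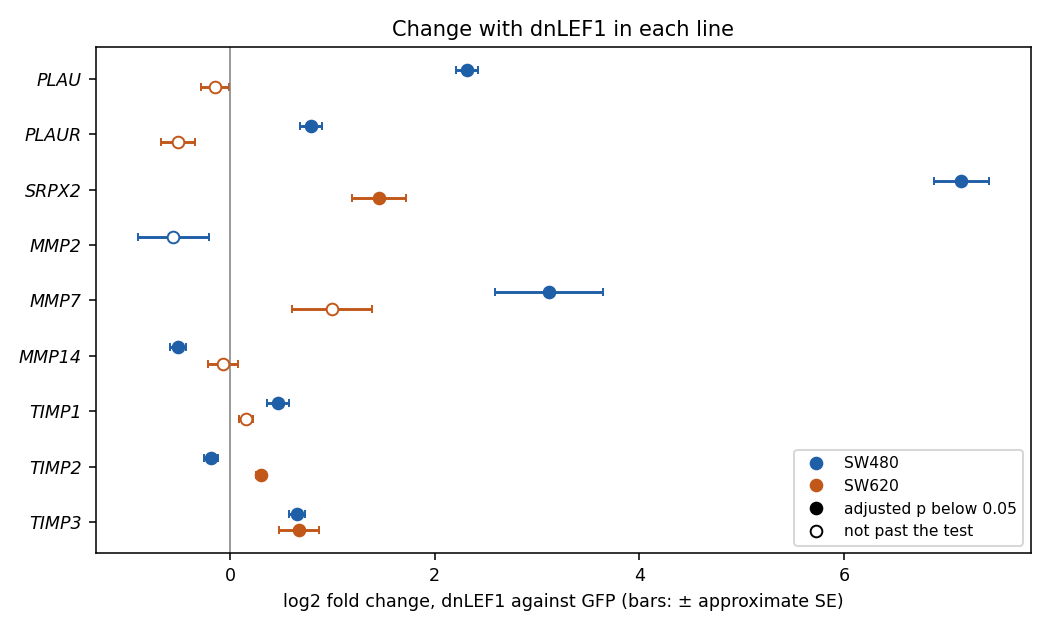
Log2 fold change of each gene with dnLEF1 against GFP in SW480 (blue) and SW620 (orange), with bars of ± 1 approximate SE from the edgeR test and filled points where the adjusted p was below 0.05. SRPX2 lies farthest to the right in both lines, at 7.15 and 1.45, and MMP2 has no SW620 point because it had no count there.

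The 3 MMP genes did not move together. MMP7 (chr11:102520508-102530750, minus strand) rose in SW480 from 1.07, 0.134, 0.0952 and 0.274 CPM with GFP to 6.34, 3.05, 3.37 and 1.71 CPM with dnLEF1. The groups did not overlap, but replicate 1 was the highest library of both groups. SW480 dnLEF1 replicate 4, the library lowest in LEF1 of its group, was also lowest in MMP7. Of the 9 genes it was lowest in MMP7 alone, and a link to LEF1 was not tested. The summed counts went from 38 to 334, a ratio of 8.67 (exact 95% interval 6.19 to 12.5, counting error only), and the log2 change was 3.12 ± 0.53 (edgeR adjusted p = 0.000224). Without SW480 GFP replicate 1 the log2 change was 4.39 ± 0.56. In SW620 the GFP libraries read 0.454, 0.553, 0.266 and 0.491 CPM and the dnLEF1 libraries 1.53, 0.859, 0.433 and 0.829 CPM, which overlapped. The log2 change there of 0.99 ± 0.39 did not pass the test (edgeR adjusted p = 0.161), though it did without SW620 dnLEF1 replicate 3 (edgeR adjusted p = 0.0495). The difference between the lines of -2.12 ± 0.81 did not pass either (edgeR interaction term, adjusted p = 0.0551), but passed without SW480 GFP replicate 1, where it was -3.39 (edgeR adjusted p = 0.00351), without SW480 dnLEF1 replicate 4 (0.0297) and without SW620 dnLEF1 replicate 1 (0.0321). It also passed with limma voom (-2.65, adjusted p = 0.0245) and with no filter on low counts (-2.13, edgeR adjusted p = 0.0322). Under 15 of the 21 alternatives it was not called, with adjusted p up to 0.112 over the edgeR, DESeq2 and limma voom fits.

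MMP14 (chr14:22836560-22849041, plus strand) was the most abundant of the 3 MMPs and fell in SW480. Its libraries read 54.2, 48.5, 47.8 and 46.4 CPM with GFP and 36.1, 34.3, 31.6 and 36.4 CPM with dnLEF1. The groups did not overlap, and MMP14 was 1.42-fold lower with dnLEF1 (log2 -0.51 ± 0.08, edgeR adjusted p = 7.53e-05). In SW620 it ranged from 5.71 to 7.82 CPM with GFP and from 5.59 to 7.67 CPM with dnLEF1 (log2 -0.07 ± 0.14, edgeR adjusted p = 0.859). The effect was 0.44 ± 0.15 higher in SW620 (edgeR interaction term, adjusted p = 0.0354). That call was lost without SW480 GFP replicate 1, SW480 dnLEF1 replicate 2 or 3, SW620 GFP replicate 1 or 2, or SW620 dnLEF1 replicate 1 or 2, with adjusted p up to 0.0869.

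MMP2 (chr16:55389700-55506691, plus strand), the gelatinase that MMP14 activates, was low in SW480 and absent from the counts in SW620. It read 1.07, 1.25, 1.71 and 1.78 CPM in SW480 GFP and 0.306, 1.35, 0.884 and 1.39 CPM in SW480 dnLEF1, and these ranges overlapped. The log2 change of -0.55 ± 0.35 did not pass the test (edgeR adjusted p = 0.203). All 8 SW620 libraries had 0 counts, which by counting error alone allows up to 0.0353 CPM with GFP and 0.0349 CPM with dnLEF1 (3 counts over the group), so the effect of dnLEF1 could not be compared between the lines for this gene. Among all 23 MMP genes in the files, 7 had a mean above 1 CPM in SW480 GFP, 8 in SW480 dnLEF1 and 6 in each SW620 group, while 3, 3, 9 and 10 had no count. MMP15, another membrane-anchored MMP, had the highest mean CPM of them in SW620, at 11.2 CPM with GFP and 8.22 CPM with dnLEF1. These levels are not scaled for gene length, and MMP15 and MMP17 overlapped in both SW620 groups. The change of MMP15 in SW620 did not pass the test (edgeR adjusted p = 0.0806).

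TIMP1 and TIMP2 were the most abundant of the 9 genes in all 4 groups. TIMP1 (chrX:47582408-47586789, plus strand), a soluble inhibitor of many MMPs, read 88.6, 77.6, 75.1 and 66.0 CPM in SW480 GFP and 127, 92.4, 94.4 and 112 CPM in SW480 dnLEF1. The groups did not overlap, replicate 1 was highest in both, and the rise was 1.39-fold (log2 0.47 ± 0.11, edgeR adjusted p = 0.00259). In SW620 the ranges were 114 to 138 and 132 to 159 CPM, which overlapped (log2 0.16 ± 0.07, edgeR adjusted p = 0.245). The lines differed by -0.31 ± 0.14 in the effect, which did not pass (edgeR interaction term, adjusted p = 0.104) but did without SW480 GFP replicate 1 (0.0417). TIMP1 lies within an intron of SYN1 on the opposite strand and shares no exon base with it.

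TIMP2 (chr17:78852977-78925387, minus strand), the TIMP of the MMP14 and pro-MMP2 complex, moved in opposite directions in the lines. In SW480 the GFP libraries read 263, 308, 298 and 322 CPM and the dnLEF1 libraries 246, 269, 268 and 264 CPM, with GFP replicate 1 below 3 of the dnLEF1 libraries. The fall was 1.14-fold (log2 -0.18 ± 0.07, edgeR adjusted p = 0.0443), and the call was lost when any library other than GFP replicate 1 was left out, with adjusted p up to 0.15. In SW620 the GFP libraries read 119, 115, 107 and 116 CPM and the dnLEF1 libraries 141, 139, 142 and 143 CPM. Those groups did not overlap, and TIMP2 rose 1.24-fold (log2 0.30 ± 0.05, edgeR adjusted p = 0.00151). The effect of dnLEF1 was 0.49 ± 0.09 higher in SW620 (edgeR interaction term, adjusted p = 0.000194).

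TIMP3 (chr22:32801705-32863041, plus strand) was the gene whose rise was of like size in both lines. In SW480 it went from 23.4, 20.7, 22.5 and 25.8 CPM to 35.7, 38.0, 34.5 and 36.8 CPM, 1.57-fold (log2 0.65 ± 0.08, edgeR adjusted p = 9.93e-06). In SW620, at a much lower level, it went from 1.22, 2.21, 1.92 and 1.97 CPM to 2.57, 3.44, 3.03 and 2.74 CPM, 1.60-fold (log2 0.68 ± 0.20, edgeR adjusted p = 0.046). Groups did not overlap in either line. The SW620 call was lost when any library other than GFP replicate 2 was left out, with adjusted p from 0.0549 to 0.117. The difference between the lines was 0.03 ± 0.17 (edgeR interaction term, adjusted p = 0.938), which does not show that the effects were equal. TIMP3 lies within SYN3 on the opposite strand and shares no exon base with it.

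Over the 9 genes, the interaction was higher in SW620 for 2 (MMP14 and TIMP2), lower for 3 (PLAU, PLAUR and SRPX2) and not called for 4, among them MMP2 with no SW620 count, where 28.5% of all 14926 genes tested were called (16.2% higher and 12.3% lower). The number of calls higher was 1 without any one of the libraries named for MMP14, and the number lower was 5 without SW480 GFP replicate 1. In SW480, 7 of the 9 genes had groups that did not overlap, 6 higher and 1 lower, against 45% of all genes tested (21.7% higher and 23.4% lower). In SW620 4 of 8 did not overlap, 3 higher and 1 lower, against 13.7% (8.5% higher and 5.17% lower).

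The control libraries of the lines were also set against each other. Of the 7 genes tested there, 5 were lower in SW620 GFP than in SW480 GFP (PLAUR, MMP2, MMP14, TIMP2 and TIMP3) and 2 were higher (PLAU and TIMP1), where 78% of all 14350 genes tested were called (37.7% higher and 40.3% lower). All 7 had groups that did not overlap, against 72.5% of all genes (35.1% higher and 37.4% lower). TIMP3 was 12.7-fold lower (log2 -3.66 ± 0.14, edgeR adjusted p = 1.21e-11), MMP14 7.44-fold (log2 -2.90 ± 0.11, edgeR adjusted p = 4.91e-12) and PLAUR 5.37-fold (log2 -2.42 ± 0.13, edgeR adjusted p = 2.98e-10). TIMP2 was 2.61-fold lower (log2 -1.39 ± 0.07, edgeR adjusted p = 1.15e-10). MMP2 was at least 40.6-fold lower, from 0 against 130 counts with the SW620 side set to a floor of 3 counts over the group. With dnLEF1 the same bound was at least 28.1-fold, from 0 against 90 counts. PLAU was 1.61-fold higher (log2 0.68 ± 0.14, edgeR adjusted p = 0.000477) and TIMP1 1.68-fold higher (log2 0.75 ± 0.08, edgeR adjusted p = 1.31e-06). SRPX2 and MMP7 were below the filter on low counts of this comparison and were tested on log2(CPM + 0.1). SRPX2 was at 0.0735 ± 0.0675 CPM in SW480 GFP and 0.522 ± 0.164 CPM in SW620 GFP, without overlap (two-sided exact permutation p = 0.02857, the smallest that 4 against 4 can give, and 0.05714 after adjustment over both genes). MMP7, at 0.392 ± 0.456 and 0.441 ± 0.124 CPM, overlapped (two-sided exact permutation p = 0.4857).

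Levels of different genes were compared per kilobase of exon. In SW480 GFP the order was TIMP1 at 53.1 ± 6.44 CPM per kb, TIMP2 at 48.0 ± 4.10, MMP14 at 10.6 ± 0.738, PLAUR at 5.16 ± 0.766, TIMP3 at 5.03 ± 0.455, PLAU at 2.07 ± 0.293, MMP2 at 0.309 ± 0.0740, MMP7 at 0.169 ± 0.197 and SRPX2 at 0.00953 ± 0.00876. TIMP1 and TIMP2 overlapped, as did PLAUR with TIMP3 and MMP2 with MMP7. In SW480 dnLEF1, PLAU (10.3 ± 0.686 CPM per kb) moved up beside PLAUR (8.92 ± 1.00), TIMP3 (7.89 ± 0.323) and MMP14 (7.48 ± 0.479), each overlapping the next, and SRPX2 (1.51 ± 0.0804) came level with MMP7 (1.56 ± 0.842). Of the 7707 exon bases of SRPX2, 4006 are shared with SYTL4. The strand setting is not known, so the SRPX2 level per kilobase is uncertain. In both SW620 groups TIMP1 was first, at 89.9 ± 7.48 with GFP and 100.2 ± 8.39 CPM per kb with dnLEF1, then TIMP2 at 18.4 ± 0.829 and 22.8 ± 0.268, PLAU at 3.35 ± 0.543 and 3.03 ± 0.439, and MMP14 at 1.44 ± 0.237 and 1.38 ± 0.201. Using the longest transcript as the length put the mean of TIMP2 above that of TIMP1 in SW480 GFP. It put the mean of PLAUR above that of MMP14 in all 4 groups and above that of PLAU in SW480 dnLEF1. By that length TIMP2 and TIMP1 overlapped in SW480 GFP, and PLAUR and MMP14 overlapped in SW480 GFP and SW620 dnLEF1.

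Ratios within a library are given as descriptions. The summed level of the 3 MMPs over that of the 3 TIMPs, per kilobase, was 0.105 ± 0.00633 in SW480 GFP and 0.0748 ± 0.00436 in SW480 dnLEF1, without overlap. It was 0.0151 ± 0.00251 in SW620 GFP and 0.0143 ± 0.00176 in SW620 dnLEF1, with overlap. PLAU over PLAUR went from 0.403 ± 0.0481 to 1.17 ± 0.161 in SW480, without overlap, and read 3.54 ± 0.881 and 4.58 ± 0.953 in SW620, with overlap. With the longest transcript as the length, PLAU over PLAUR was 0.162 ± 0.0193 and 0.468 ± 0.0643 in SW480 and 1.42 ± 0.353 and 1.84 ± 0.382 in SW620, so that its place above or below 1 in SW480 dnLEF1 depends on the length used.

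**Figure D3:**
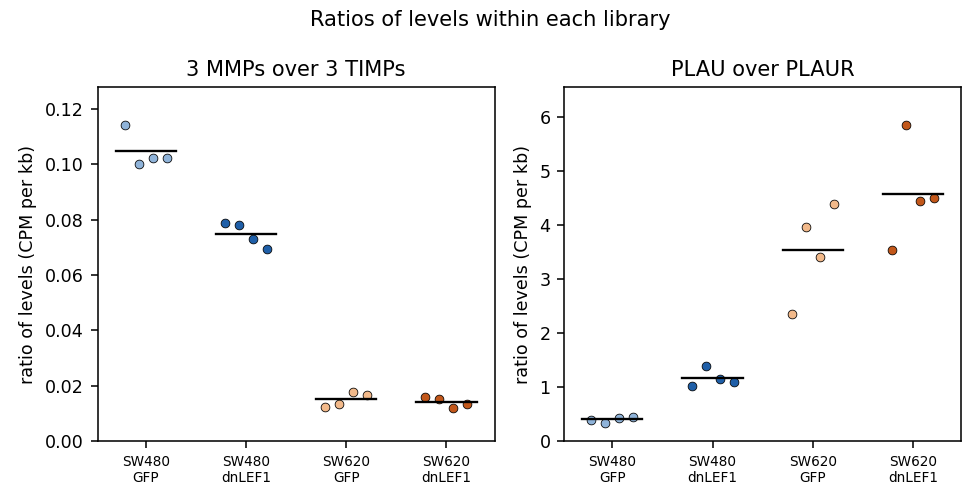
Ratios of levels within each library (CPM per kilobase of exon, linear axes from 0): MMP2, MMP7 and MMP14 over TIMP1, TIMP2 and TIMP3, and PLAU over PLAUR, by group. Points are libraries and bars are means; the first ratio falls from 0.105 to 0.0748 in SW480, and the second rises from 0.403 to 1.17. The lengths are those of all exons merged.

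A list of 65 other genes of pericellular proteolysis, all found in the files, was read beside the 9. In SW480, 44 of them were tested, and 19 rose, 10 fell and 15 did not pass, where 24.2% of all genes tested were called higher and 24.4% lower. Their median log2 change was 0.16, against 0.00 over all genes. Among those with a mean of at least 1 CPM in a group, the largest rises after PLAT were those of MMP17 (log2 2.45 ± 0.37, edgeR adjusted p = 7.99e-05), a lipid-anchored MMP, the tissue factor gene F3 (2.38 ± 0.08, 1.91e-11), the SRPX2 relative SRPX (2.30 ± 0.12, 2.28e-09) and the protease inhibitor gene SERPINE2 (1.32 ± 0.09, 2.66e-08). F3 went from 12.1 to 63.0 CPM and SRPX from 3.84 to 18.8 CPM. By the same minimum, the largest falls were those of VLDLR (log2 -2.16 ± 0.10, edgeR adjusted p = 6.69e-10), a receptor that takes up serpin and protease complexes, of the serpin genes SERPINI1 (-1.92 ± 0.14, 6.63e-08), SERPINB5 (-1.37 ± 0.13, 9.26e-07) and SERPINA5 (-1.10 ± 0.42, 0.0413), and of ADAM19 (-1.13 ± 0.10, 4.68e-07). The fall of SERPINA5 was not called without SW480 GFP replicate 3 or 4 or any one of the SW480 dnLEF1 libraries, and was -0.59 without SW480 GFP replicate 4 (edgeR adjusted p = 0.21). RECK, a membrane-anchored MMP inhibitor, rose 1.51-fold (log2 0.59 ± 0.11, edgeR adjusted p = 0.000381).

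In SW620, 36 genes of the list were tested, and 4 rose, 1 fell and 31 did not pass the test, where 6.03% of all genes were called higher and 2.43% lower. Without SW620 GFP replicate 2 or SW620 dnLEF1 replicate 4 the number that rose was 2, and without SW620 GFP replicate 1 or SW620 dnLEF1 replicate 3 or 4 the number that fell was 2. SERPINI1, the gene of a serpin that inhibits tissue plasminogen activator, went up there to 42.1 CPM from 21.3 (log2 0.99 ± 0.07, edgeR adjusted p = 5.49e-07), opposite to its fall in SW480. RECK, at 0.907 CPM with GFP, rose to 1.76 CPM (log2 0.96 ± 0.21, edgeR adjusted p = 0.0105), so that it rose in both lines, as TIMP3 did. SERPINE2 (log2 0.43 ± 0.11, edgeR adjusted p = 0.0202) and S100A10 (0.23 ± 0.06, 0.0213), part of a plasminogen receptor, also rose. Both calls were lost without SW620 GFP replicate 2 or SW620 dnLEF1 replicate 4, and that of S100A10 also without SW620 GFP replicate 3 or SW620 dnLEF1 replicate 1 (edgeR adjusted p up to 0.0817). ST14, the gene of the membrane serine protease matriptase, fell to 53.0 CPM from 93.7 (log2 -0.82 ± 0.07, edgeR adjusted p = 3.58e-06) and also fell in SW480, to 109.7 CPM from 140.5 (log2 -0.35 ± 0.07, edgeR adjusted p = 0.000483).

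**Figure D4:**
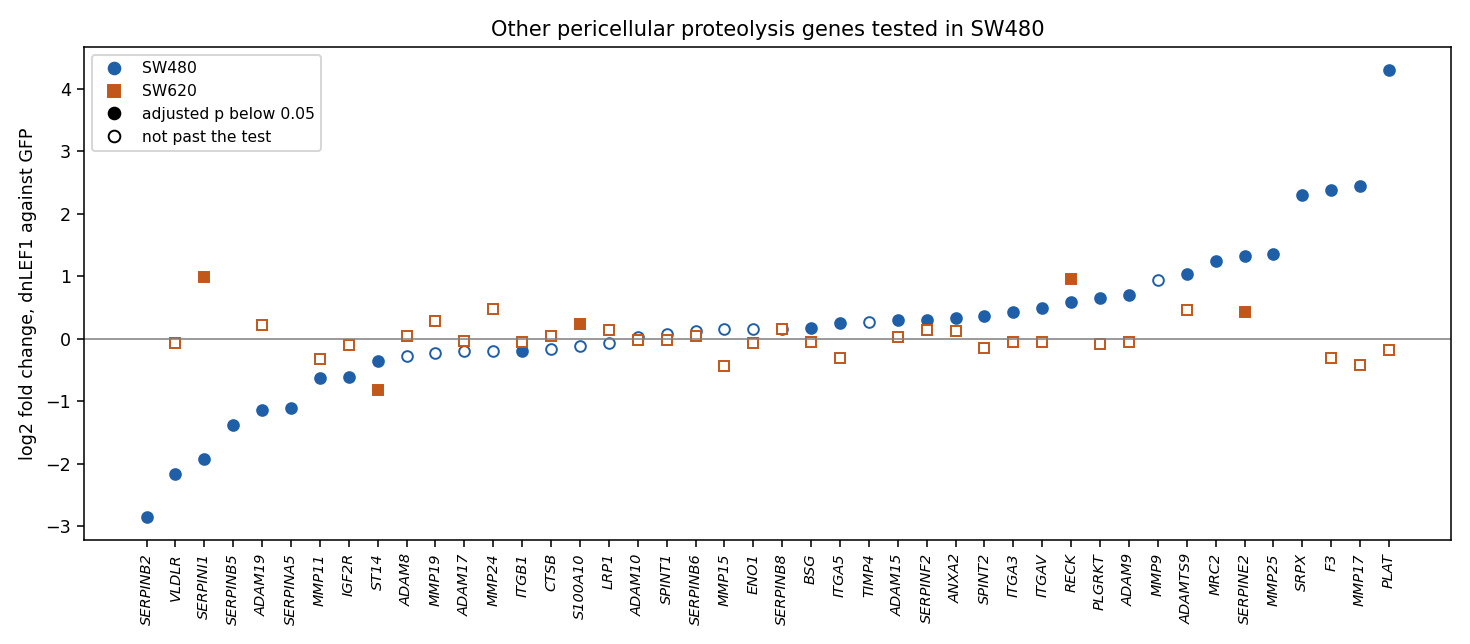
Log2 fold change with dnLEF1 against GFP of the 44 other pericellular proteolysis genes tested in SW480 (circles), ordered by that change, with the SW620 value (squares) where the gene was tested there. Filled symbols passed the test; PLAT lies highest, at 4.31 in SW480 and -0.19 in SW620.

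For the same list the interaction was lower in SW620 for 13 of 44 genes and higher for 5, against 12.3% and 16.2% of all genes. The largest were those of PLAT, MMP17 (-2.85 ± 0.42, edgeR adjusted p = 2.61e-05), F3 (-2.68 ± 0.14, 9.8e-12), SRPX (-1.83 ± 0.62, 0.0302) and SERPINE2 (-0.89 ± 0.14, 8.8e-05) on one side. On the other were SERPINI1 (2.91 ± 0.15, edgeR adjusted p = 9.7e-12), VLDLR (2.10 ± 0.21, 1.55e-07), ADAM19 (1.36 ± 0.14, 2.38e-07), IGF2R (0.51 ± 0.15, 0.0141) and S100A10 (0.35 ± 0.09, 0.00489). The call of SRPX was lost without SW620 GFP replicate 1 or 2 or SW620 dnLEF1 replicate 1 (edgeR adjusted p up to 0.149). Between the GFP libraries of the lines, 43 genes of the list were tested and 27 were lower in SW620 and 10 higher, where 40.3% of all genes were lower and 37.7% higher. The lower ones were led by the collagen receptor gene MRC2 (37.9 against 0.108 CPM, log2 -8.41 ± 0.17, edgeR adjusted p = 8.6e-15), MMP9 (-5.97 ± 0.92, 3.31e-05), the integrin gene ITGA3 (-5.45 ± 0.09, 1.94e-15), SERPINA5 (-5.09 ± 0.79, 3.25e-05) and TIMP4 (-5.00 ± 0.41, 4.64e-08). MMP9 rested on 1 count in SW620 GFP, and its log2 difference was -7.58 without SW620 GFP replicate 1 and -5.31 without SW480 GFP replicate 1. That of SERPINA5 was -6.07 without SW620 GFP replicate 3. PLAT (log2 -3.01 ± 0.21, edgeR adjusted p = 8.49e-09) and RECK (-2.81 ± 0.18, 2.16e-09) were lower as well. The higher ones were led by MMP17 (3.35 ± 0.22, edgeR adjusted p = 3e-09) and ADAMTS9 (1.03 ± 0.27, 0.00257), then ENO1 (0.66 ± 0.10, 4.24e-05), IGF2R (0.57 ± 0.06, 1.19e-06) and SERPINI1 (0.45 ± 0.11, 0.00129).

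Genes close to the 9 on their chromosomes were read to see whether whole neighbourhoods had moved. The 24 tested genes nearest to PLAU had a median log2 change of -0.26 in SW480, with 2 above 0, 0 called higher and 11 called lower, while PLAU itself was at 2.32. Of all genes tested in SW480, 24.2% were called higher and 24.4% lower. Around SRPX2 the median was -0.14, with 4 called higher and 5 lower, and around MMP7 it was -0.03, with 6 called higher and 9 lower. Among the neighbours of SRPX2, the nearest, TSPAN6 and SYTL4, were at 0.57 and 0.87, and PCDH19 was at -8.93. Among those of MMP7, BIRC3 was at 1.52 and CNTN5 at -7.39. TIMP2 fell in SW480 while 14 of its 24 neighbours were called higher, with a median of 0.27. Around the other 5 genes the medians lay between -0.11 and 0.12, and around MMP2, 1 of these 5, 11 of the 24 were called higher and 4 lower. In SW620 the medians around the 9 genes lay between -0.06 and 0.06.

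**Figure D5:**
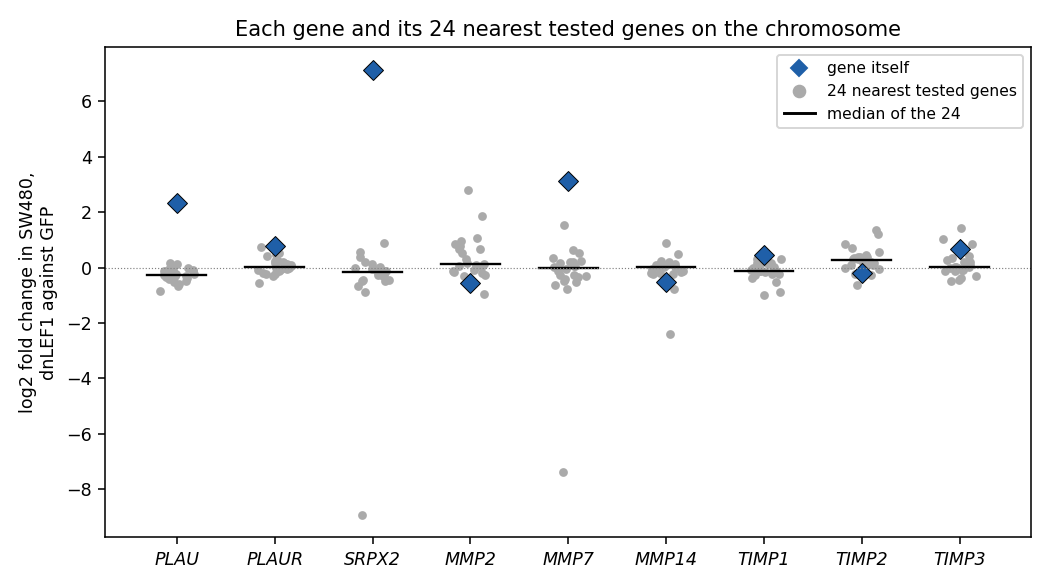
Log2 fold change in SW480 with dnLEF1 against GFP of each of the 9 genes (diamonds) and of the 24 tested genes nearest to it on its chromosome (grey points, with their median as a bar). PLAU, PLAUR, SRPX2 and MMP7 lie above all of their 24 neighbours, PLAUR narrowly, at 0.79 against 0.74 for the highest of its own.

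The genes whose levels most resembled those of 5 of the 9 were found by Pearson's r of log2 CPM over the 16 libraries, which share the difference between the lines, so that r is a description only. F2RL1, the gene of a protease-activated receptor, came first for SRPX2 among 11747 genes (r = 0.99), with group means of 17.9, 146, 41.3 and 52.1 CPM in SW480 GFP, SW480 dnLEF1, SW620 GFP and SW620 dnLEF1, followed by HDAC9 and KIFC3 (both 0.97). For PLAU they were ZNF512B and RCAN1 (both 0.97) and KIFC3 (0.96), which stood at 23.1, 89.3, 32.9 and 37.5 CPM. PLAUR was most like TOR1B, PDE9A and RPE (all 0.99), and TIMP3 most like EPHB4, JPH2 and CROT (all 0.99). EPHB4, an ephrin receptor gene, stood at 97.2, 125, 8.59 and 14.3 CPM. The closest genes for MMP7, FRMD5 (0.92), MLX and SHCBP1 (both 0.91), were less like it.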

How the data were processed

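Polyadenylated RNA was measured in 16 libraries, grouped by their labels. The deposited values are raw read counts per gene symbol, made by the authors with Trimmomatic, TopHat2, HTSeq and DESeq2 on hg38, per the submitters' processing notes. No source used here gives versions, annotation or strand setting. The 5 summary lines of each file name no gene, held 20.0% to 50.5% of the total, and entered neither library sizes nor tests. Those lines hold reads aligned to several places, so a gene with near copies is undercounted. No libraries of a group were alike within counting noise (chi-square per degree of freedom of at least 1.96 over genes), so all were counted. Replicates 2 and 3 were the closest pair in both SW480 groups, at 1.96 with GFP and 2.27 with dnLEF1. The other SW480 pairs stood at 6.47 to 13.8 with GFP and 12.6 to 21 with dnLEF1. Whether replicates 2 and 3 shared a culture is not in the labels.

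The tests were edgeR's (4.0.16, in R 4.3.3: TMM, filterByExpr by group, quasi-likelihood test, Benjamini-Hochberg over all genes tested, called below 0.05). Each comparison was fitted on its own 8 libraries, and the interaction on all 16. SE is approximate, |log2 fold change| divided by the root of the F statistic. CPM are on the effective library sizes of the 16-library fit, and lengths and positions are from GENCODE 44. In that annotation 23123 symbols (87.3%) were placed. The fits were tested on simulated counts, with the same spread for all genes and changes placed only in well-counted genes. Genes as low as SRPX2, MMP2 and MMP7 in the GFP libraries were not covered by that. Alternatives were other size factors, DESeq2 1.42.0, limma 3.58.1 voom, no filter, a replicate block, 1 fit of all libraries, leaving out each library, and the longest transcript as length.

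The 9 genes, the lists and the rule were chosen with earlier results of these data known. All 9 genes are named. Of the 65 others, PLAT, PLG, RECK and the 5 called genes with the largest change each way and a mean of at least 1 CPM in a group of the comparison are named. A gene of the list as first drawn up is not reported here. For 5 of the 9, the 3 genes with the highest r are named, among genes with a mean of at least 5 CPM in a group. SYTL4, C10orf55, SYN1, SYN3, MMP15, ST14 in SW480, TSPAN6, PCDH19, BIRC3, CNTN5 and the marker genes fall outside that rule and were named after their values were seen.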

Additional observations from a re-analysis of the deposited data

Results flagged for a closer look

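The effect of dnLEF1 differed between the lines by the interaction test for 5 of the 9 genes, as the log2 change in SW620 minus that in SW480: PLAU -2.458, PLAUR -1.291, SRPX2 -5.687, MMP14 0.4367 and TIMP2 0.49. The same held for LEF1 itself, at 0.5329, though LEF1 lost that call in 9 of 16 fits that left out a library. Among the other named proteolysis genes it held for PLAT at -4.488, MMP17 at -2.85, F3 at -2.677, SRPX at -1.833 and SERPINE2 at -0.8885, and, in the other direction, for SERPINI1 at 2.909, VLDLR at 2.101, ADAM19 at 1.358, IGF2R at 0.5055 and S100A10 at 0.3475.

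A library stood apart from the other 3 of its group in 3 cases, by the gap to its nearest neighbour as a share of the whole range, against a 95% limit of 0.829. LEF1 was low in SW480 GFP replicate 3 (48.9 CPM, 0.845 of the range) and in SW480 dnLEF1 replicate 4 (173 CPM, 0.964). The ratio of MMPs to TIMPs was high in SW480 GFP replicate 1 (0.114, 0.842 of the range). Chance alone flags about 1 group in 20. None of the 9 genes itself had such a library in any group.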

How the results depend on the processing

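In SW480, PLAU, PLAUR, SRPX2, MMP7, TIMP1 and TIMP3 were called higher and MMP14 lower under all 15 alternatives, and TIMP2 was not called with no filter on low counts, where 1 of the 9 genes was lower. Leaving out each library gave 1 to 2 lower. In SW620, SRPX2 and TIMP2 were called higher under all 15 alternatives. The number of other proteolysis genes lower there was 2 with DESeq2, 2 with no filter, 3 in the fit of all 16 libraries and 1 to 2 leaving out each library, and the number higher 2 to 4 leaving out each library. For the interaction, leaving out each library gave 1 to 2 of the 9 genes higher and 3 to 5 lower.

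Libraries of the same number were not treated as pairs, since the labels do not say that a number marks a shared culture or day and not every pair correlated. Deviations from the group means correlated at -0.218 to 0.316 in SW480, where 1 of 4 pairs correlated best with its own number, and at -0.0666 to 0.521 in SW620, where 3 of 4 did. With the replicate number as a block, SW620 gave 5 of the 8 genes tested there higher and 1 lower, and 6 other proteolysis genes higher and 4 lower. Of all 13336 genes tested there, 676 were called lower with the block against 324 without it. The interaction gave 1 of the 9 higher and 5 lower. The shares of all genes called higher with the block, and called in its interaction, are not given here. These counts of genes therefore have no full background beside them. The SRPX interaction was lost with the block (edgeR adjusted p = 0.0563), as was that of MMP14 (0.0521), and those of MMP7 (0.00607) and TIMP1 (0.0379) passed. PLAUR (edgeR adjusted p = 0.0243), MMP7 (0.045) and TIMP1 (0.0476) passed with the block in SW620.

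Signs turned for values that had not passed the test. MMP14 in SW620 ran from -0.1598 to 0.02029 over the fits that left out a library, and the TIMP3 interaction from -0.1275 (without SW620 GFP replicate 1) to 0.1363. It was also below 0 at -0.02704 without SW480 GFP replicate 4, -0.03913 without SW620 dnLEF1 replicate 2 and -0.004203 without SW620 dnLEF1 replicate 3. PLAT in SW620 was at 0.02462 without replicate 1 of both groups, a choice added after seeing the data, which gave 2 other proteolysis genes higher there. The causes were not tested. Low counts limit SRPX2, MMP2 and MMP7 most.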
